A study of Mus musculus with 61 samples.

Results

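The comparison described here set DBA/2J mice that were 9 months old and had been given nicotinamide against DBA/2J mice that were 4 months old and had been given water. It used the 7 nicotinamide libraries and the 10 young libraries named by the columns deposited, 17 of the 61 libraries in all. Of 15149 genes, 13024 had a value of at least 1 in at least 7 of these 17 libraries and were tested, and 2125 were not.

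The study measured RNA by sequencing in cells sorted from the retina. DBA/2J is an inbred mouse strain that develops pigment dispersion, raised eye pressure and loss of retinal ganglion cells as it ages; Gpnmb is 1 of the genes mutated in it. The labels call the sorted cells retinal ganglion cells, which send the axons of the optic nerve. The gate kept cells positive for Thy1.2, left out those with GFAP, Cd45.2, Cd34, Cd11c or Cd11b, and every optic nerve had been scored as free of degenerating axons. The treated group was DBA/2J, 9 months, nicotinamide at 500 mg per kg per day. The young group was DBA/2J, 4 months, water, at the age that the labels call young. A group of 25 DBA/2J libraries at 9 months on water serves below as a point of reference. It does so mainly through 3 of its libraries, whose columns stand in the same stretch of the table as the 17. The stretch was set by column order alone. In it the nicotinamide columns form a block of their own, at positions 29 to 35. The young columns come after that block, from 36 to 48, with the 3 water columns among them at 41, 42 and 47. Column position and nicotinamide therefore cannot be told apart, against the young or against the 3 water libraries. The part of column position in the results was not tested. D2-Gpnmb+ mice, which carry a functional Gpnmb allele on the same background, gave 10 libraries at 4 months and 3 at 9 months in that stretch. No group of young mice received nicotinamide, so in this comparison age and nicotinamide cannot be told apart. The labels give the age and the dose but not the route or start of treatment, the sex of each library or whether each library is a separate animal, so the spread behind each p may be technical.

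Nicotinamide is a form of vitamin B3 that cells convert to NAD through Nampt and the Nmnat enzymes. NAD carries electrons in glycolysis and respiration and is consumed by sirtuins, PARP enzymes and Sarm1, the enzyme that drives axon breakdown. Rods and cones, the photoreceptors, turn light into a change of membrane current through an opsin, the G protein transducin, a cGMP phosphodiesterase and a cGMP-gated channel, and they are among the heaviest users of energy in the retina.

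Sequencing depth differed between the groups. The nicotinamide libraries had 9136453 to 12218457 reads with a median of 11703006, and the young libraries 5449826 to 11016497 with a median of 8412401 (exact permutation test, two-sided, p = 0.00617, adjusted p = 0.0118 over 4 library measures). The share of reads on ribosomal RNA was 25.1 to 30.4% and 20.9 to 37.0% (exact permutation p = 0.92, adjusted p = 0.92). Xist, expressed from the inactive X chromosome, ranged from 6262 to 7434 with nicotinamide and from 6334 to 10852 in the young (exact permutation p = 0.00884, adjusted p = 0.0118). The number of genes with a read also differed, with means of 14835 and 14709 (exact permutation p = 0.000823, adjusted p = 0.00329). The part of these differences in the results below was not tested. Nicotinamide replicate 2, by its column number, stood apart in acute phase genes and is described with them, and young replicate 10 lay farthest out on the first principal component (28.1% of the variance). There were 154 calls without the latter. Markers of retinal ganglion cells were low: Rbpms averaged 8.99 with nicotinamide and 11.6 in the young. Summed over the list, rod markers reached 9437 to 21148 and 5561 to 12002, bipolar cell markers 6982 to 12941 and 7890 to 14254, and ganglion cell markers 411 to 635 and 338 to 760. Isl1, which ON bipolar and amacrine cells also express, made up a large part of the ganglion cell sum. The sorted cells therefore held RNA of several retinal cell types, and in such bulk samples fewer cells of a type and less RNA per cell cannot be told apart. Microglia, which the gate excludes, left little RNA: 18 of 20 microglia and macrophage markers in the table averaged under 1 in both groups. Markers of Müller glia and astrocytes summed to 2154 to 3650 and 1934 to 5644, above the ganglion cell sums, though cells with GFAP were left out. Endothelial markers summed to 131 to 279 and 109 to 399.

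Between the groups, 200 of 13024 genes passed an adjusted p of 0.05 (1.54% of those tested), 103 higher with nicotinamide (0.791%) and 97 lower (0.745%). Genes of rods, cones and horizontal cells were among those that rose, and genes of the vessel wall and 3 chromatin genes were among those that fell. The changes were small: the called genes ran from -1.49 to 1.51 on the log2 scale, the median size was 0.60, and 21 exceeded 1. The median over all tested genes was 0.006. In 27 genes (0.207%) the 2 groups did not overlap, 18 higher (0.138%) and 9 lower (0.0691%), and 25 of those were called. At an unadjusted p of 0.05 there were 1943 genes. The number of calls depended on single libraries. It was 16 without nicotinamide replicate 5, 19 without nicotinamide replicate 3, 98 without nicotinamide replicate 7, 120 without nicotinamide replicate 2, 122 without nicotinamide replicate 4 and 415 without nicotinamide replicate 8. It was 96, 103, 106, 112, 118 and 348 without young replicates 6, 5, 2, 4, 7 and 3. Replicates carry their column numbers. All values given below are the authors' normalized read counts, and fold changes are differences of mean log2(value + 1) with nicotinamide minus young, ± the standard error.

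**Figure D1:**
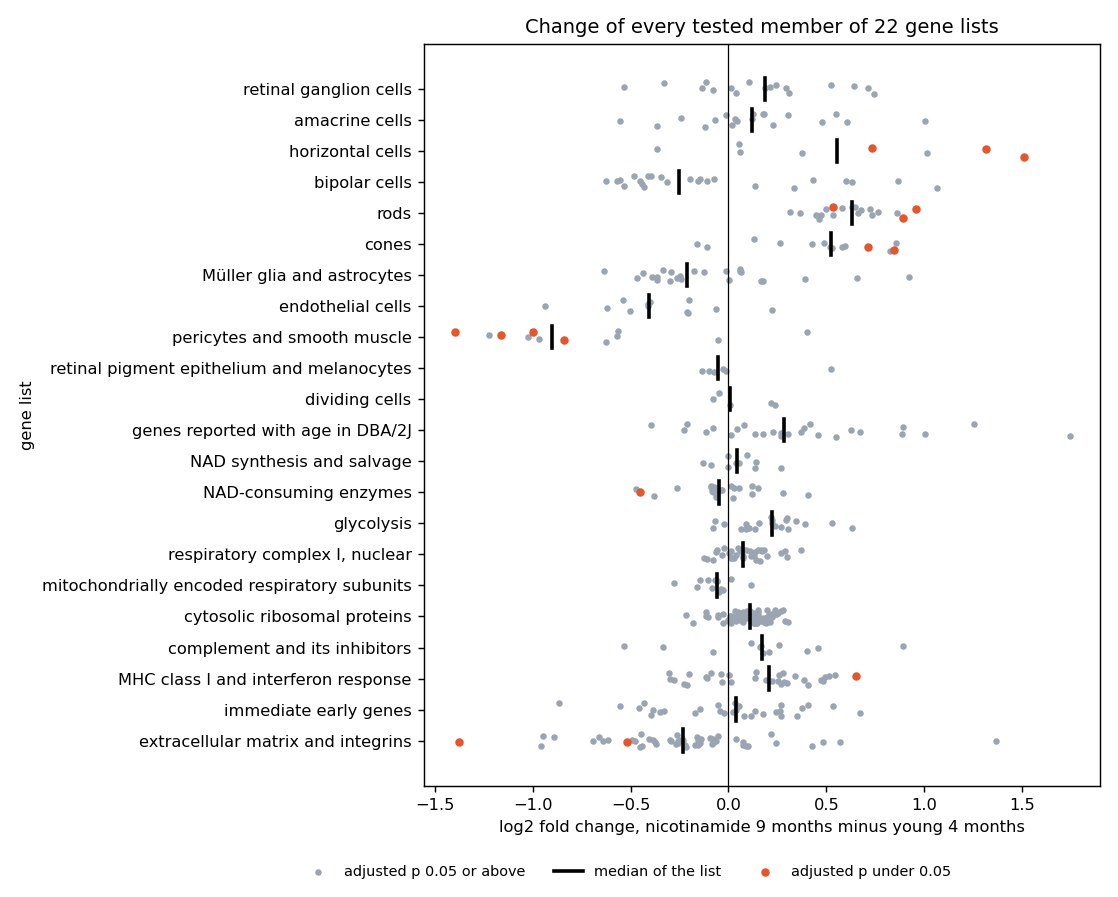
Change of each tested member of 22 gene lists, as log2 fold change with nicotinamide minus young (horizontal axis), one row per list. Red points passed an adjusted p of 0.05, grey points did not, and black bars are medians; all 19 rod markers lie right of 0, while 11 of 12 pericyte and smooth muscle markers lie left of it.

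Rod and cone genes were higher in the nicotinamide group. All 19 rod markers were tested, all had a fold change above 0 with a median of 0.63, and 3 were called: Rom1, Pde6g and Gngt1. Of 14 tested cone markers 12 were above 0, with a median of 0.53, and Gnat2 and Pde6h were called. No marker of either list was called lower. The sum of rod markers was 21148 and 20013 in nicotinamide replicates 3 and 5, and 9437 to 12363 in the other 5, a range that overlaps the young (5561 to 12002). The count of rod calls was 0 without nicotinamide replicate 3 or nicotinamide replicate 5, 5 without nicotinamide replicate 8 and 10 without young replicate 9, and 0 when all 5 groups shared 1 spread, while the rod median stayed between 0.53 and 0.70 over the 17 fits that left out 1 library. The 2 cone calls became 1 without nicotinamide replicates 1, 3, 4, 5 or 7 or young replicates 2, 4, 5 or 6, and 4 without nicotinamide replicate 2 or young replicate 10.

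Gnat2 encodes the alpha subunit of cone transducin and lies at chr3:108092789-108101432 (GRCm38, plus strand). Its values ran from 331 through a median of 577 to 697 with nicotinamide and from 271 through 314 to 408 in the young. The mean was 1.67-fold higher and the change was 0.72 ± 0.12 (adjusted p = 0.00927). In 6 of 7 nicotinamide libraries the value exceeded that of every young library, and the call held in all 17 fits with 1 library left out.

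Guca1a encodes a calcium sensor that restores cGMP after light (chr17:47394558-47400584, minus strand). It measured 178, 197 and 305 (lowest, median and highest) with nicotinamide and 72.9, 117 and 153 in the young, a change of 0.89 ± 0.14 (adjusted p = 0.00724). The groups did not overlap. Slc24a2, the sodium, potassium and calcium exchanger of cones, rose from a young median of 37.8 (28.9 to 45.2) to 58.5 (41.4 to 70.2), by 0.65 ± 0.10 (adjusted p = 0.00724).

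Among the rod genes, Rom1, a membrane protein of the outer segment disc rim, did not overlap between groups. Its values were 137, 166 and 225 with nicotinamide and 91.6, 122 and 131 in the young, with a change of 0.54 ± 0.10 (adjusted p = 0.0182). Pde6g, the inhibitory subunit of the rod cGMP phosphodiesterase, measured 424, 543 and 899 against 198, 332 and 454, a change of 0.89 ± 0.19 (adjusted p = 0.0271) with overlap by 1 nicotinamide library. Gngt1, the gamma subunit of rod transducin, changed by 0.96 ± 0.23 (adjusted p = 0.0484) and was called in only 4 of the 17 fits that left out a library. Pde6h, the cone counterpart of Pde6g, changed by 0.84 ± 0.20 (adjusted p = 0.0356) and was called in 7 of the 17 fits. Opn1sw, the short-wave cone opsin, had values of 396.4, 791 and 889 against 208, 381 and 683 and did not pass (0.86 ± 0.23, adjusted p = 0.0676).

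A wider list of 65 genes of phototransduction, the visual cycle and the outer segment was written after the values had been seen, so it serves only as a description. Of its members 64 were in the table and 63 were tested, all but Rdh5. There were 17 called higher and 0 lower, 62 of 63 were above 0 and the median was 0.56. Rbp3, which carries retinoids between photoreceptors and their neighbours, had values of 999, 1263 and 1523 with nicotinamide and 425, 670 and 932 in the young (0.90 ± 0.16, adjusted p = 0.0144), with no overlap. Aipl1, the chaperone of the phosphodiesterase, measured 78.7, 95.5 and 125 against 34.0, 62.0 and 75.3 (0.71 ± 0.14, adjusted p = 0.022), again with no overlap. Impg1, a proteoglycan of the matrix between photoreceptors, did not overlap either, with a change of 0.86 ± 0.19. The list's transcription factor Crx, which switches on photoreceptor genes, had means of 428 and 394 and did not pass (0.11 ± 0.08, adjusted p = 0.577). Without nicotinamide replicate 3 or replicate 5 the list had 4 and 3 calls, without nicotinamide replicate 1 it had 9, and without young replicates 2, 4, 5, 6 and 7 it had 8, 9, 8, 8 and 11. Without young replicate 9 it had 27, and with 1 spread for all 5 groups it had 4.

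**Figure D2:**
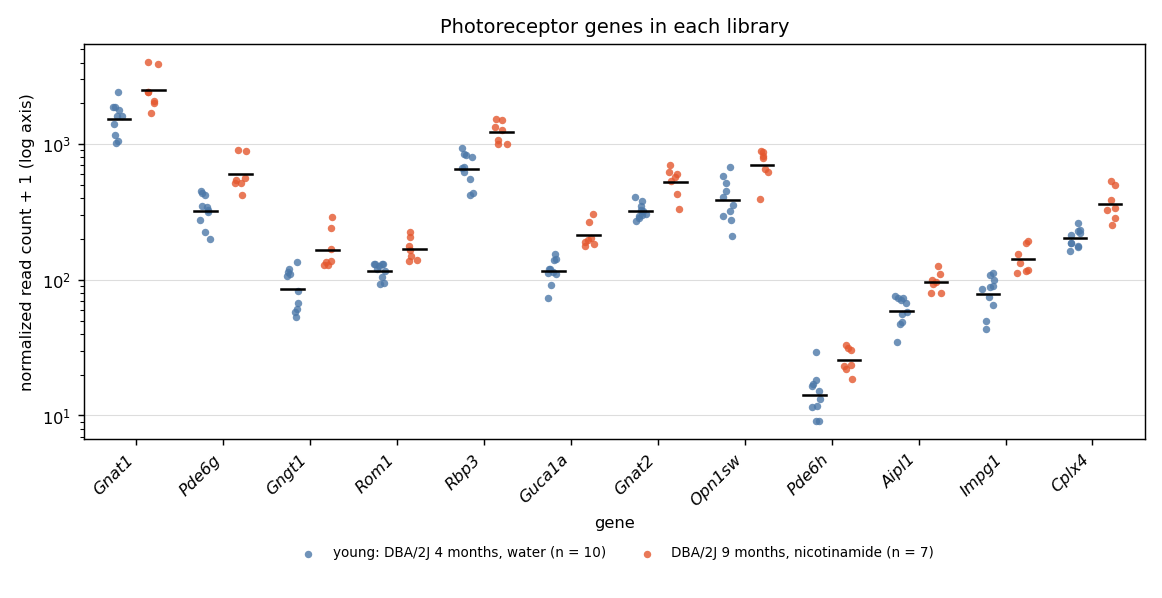
Normalized read count plus 1 (log axis) of 12 photoreceptor genes in each library, young in blue (n = 10) and nicotinamide in red (n = 7), with black bars at the mean of the log values. The red points of Guca1a, Rbp3, Rom1, Aipl1 and Impg1 lie above all blue points of the same gene, while Opn1sw overlaps.

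Promoters of 5 of these 17 called genes are shown because they hold a letter string bound by Crx, TAATCC on either strand. The stretches are the 100 bases just before the RefSeq start site, 5′ to 3′ on the strand of the gene, from RefSeq on GRCm38.p6, with capitals marking the match. All 5 matches are on the opposite strand and so read GGATTA. The positions are chr3:108092966-108093065 (plus) for Gnat2, chr6:3993908-3994007 (plus) for Gngt1, chr14:33953903-33954002 (plus) for Rbp3, chr17:47400607-47400706 (minus) for Guca1a and chr11:72037510-72037609 (minus) for Aipl1. The stretch for Gnat2 lies inside the gene position given above, which is from GENCODE and starts upstream of the RefSeq start site used here.
Gnat2: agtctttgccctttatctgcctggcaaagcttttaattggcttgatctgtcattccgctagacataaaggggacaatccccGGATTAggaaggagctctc
Gngt1: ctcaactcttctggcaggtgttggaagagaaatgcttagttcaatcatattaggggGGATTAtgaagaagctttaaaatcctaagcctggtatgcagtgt
Rbp3: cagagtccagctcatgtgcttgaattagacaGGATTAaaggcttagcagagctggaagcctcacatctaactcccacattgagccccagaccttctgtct
Guca1a: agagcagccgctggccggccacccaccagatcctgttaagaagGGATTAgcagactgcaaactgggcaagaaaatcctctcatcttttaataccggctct
Aipl1: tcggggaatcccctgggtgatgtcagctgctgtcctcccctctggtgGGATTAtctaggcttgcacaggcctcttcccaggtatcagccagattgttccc
The match began 19 bases before the start site in Gnat2, 44 in Gngt1, 69 in Rbp3, 57 in Guca1a and 53 in Aipl1. The table had start sites for 14 of the 17 called genes, and within 200 bases before them 5 of 17 start sites held the string (29.4%). Among tested members of the list without a call it was 10 of 42 start sites (23.8%), among all tested genes 496 of 12416 (4.0%), and among all RefSeq start sites 4.9%. The string was thus about as frequent before called as before uncalled photoreceptor genes, and a match of letters is not a measured binding site.

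A synaptic, a ciliary and a lipid gene were also called higher. Cplx4, a complexin of the ribbon synapses of photoreceptors and bipolar cells, had values of 255, 340 and 532 against 162, 199 and 261.9 (0.84 ± 0.14, adjusted p = 0.00768). Arl6, a small GTPase that brings proteins to cilia, had values of 42.1, 47.4 and 66.0 against 24.98, 33.1 and 39.3, with no overlap (0.63 ± 0.10, adjusted p = 0.00724). Elovl2, which lengthens the polyunsaturated fatty acids found in outer segment membranes, rose by 0.61 ± 0.11 (adjusted p = 0.0101).

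Values of other groups are set beside these, with no test against the D2-Gpnmb+ group. The 10 D2-Gpnmb+ libraries at 4 months had a higher mean than the young DBA/2J libraries in 17 of the 17 called genes of the wider list: Pde6g averaged 607, Rbp3 1081 and Guca1a 196 there, against 334, 678 and 117 in young DBA/2J and 624, 1241 and 218 with nicotinamide. The 3 DBA/2J libraries on water at 9 months averaged 352, 1065 and 149, and were above young in 15 of the 17 genes. Over all 25 such libraries, most of which stand elsewhere in the table, the means were 968, 1342 and 399, and 15 of the 17 genes were again above young. The difference between nicotinamide and those 3 libraries was tested in 1 fit with the young group, and it did not pass for Pde6g (0.78, adjusted p = 0.15), Rbp3 (0.22, adjusted p = 0.689), Guca1a (0.52, adjusted p = 0.183) or Gnat2 (0.74, adjusted p = 0.161). These comparisons share the nicotinamide or the young libraries. The 17 genes were chosen by their difference from the same young libraries, which tilts such counts toward the higher side. No share over all tested genes is given beside them, so the counts serve only as a description.

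Markers of horizontal cells, the interneurons that connect photoreceptors sideways, included the largest increase among called genes. Of 11 listed genes 10 were in the table and 8 were tested, 3 were called higher and 0 lower, and the median was 0.55. Calb1, a calcium-binding protein of horizontal cells and some amacrine and ganglion cells (chr4:15881264-15908064, plus strand), had values of 4.33, 13.9 and 24.4 with nicotinamide and 1.01, 4.52 and 7.12 in the young. The mean was 3.34-fold higher, the change was 1.51 ± 0.32 (adjusted p = 0.0273), and 6 of 7 nicotinamide libraries exceeded every young one. Onecut3, a transcription factor of horizontal cells, had values of 3.39, 4.49 and 12.2 against 0.173, 1.81 and 5.59 (1.32 ± 0.29, adjusted p = 0.0282). Ndrg1, also on the list of hypoxia-induced genes, changed by 0.74 ± 0.17 (adjusted p = 0.0301), with values of 29.6, 33.2 and 47.0 against 15.6, 18.96 and 40.9. The other tested members did not pass: Onecut2 had means of 23.03 and 9.51 (1.01 ± 0.31, adjusted p = 0.111), and Prox1, which bipolar and amacrine cells also express, 1048 and 1342 (-0.37 ± 0.12, adjusted p = 0.114). Summed over the list the levels overlapped, at 943 to 1594 and 1042.3 to 1799, and the sum is dominated by Prox1. The count of calls was 0 without nicotinamide replicate 3 or 5 and 1 without nicotinamide replicate 2 or 7 or with 1 spread for all 5 groups.

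Calb1 was also 1 of 12 genes called higher (0.0862% of 13928 tested), of 21 called in either direction (0.151%), between nicotinamide and the 3 water libraries of 9 months. Those 3 had values of 1.42, 2.11 and 2.33, all under the lowest nicotinamide library, and the difference was 2.15 (adjusted p = 0.0429). All 25 water libraries of 9 months ran from 0 to 8.16 with a median of 2.11. Their own change from the young libraries was -0.64 and did not pass (adjusted p = 0.529), and the 10 D2-Gpnmb+ libraries at 4 months ran from 0.197 to 18.5 with a median of 5.00. The count of 21 was 0, 282 and 9 when water replicates 26, 27 and 28 were left out in turn, and 4 with edgeR on the recovered reads.

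Genes of pericytes and smooth muscle, the contractile cells around retinal vessels, were lower. Of 15 markers 14 were in the table and 12 were tested; 11 had a fold change below 0, the median was -0.90, and Myh11, Notch3, Myl9 and Acta2 were called lower with 0 called higher. Myh11, the myosin heavy chain of smooth muscle (chr16:14194535-14291372, minus strand), had values of 0.787, 1.59 and 4.39 with nicotinamide and 3.66, 6.37 and 14.7 in the young. The young mean was 3.35-fold higher. The gene fell by 1.4 ± 0.25 on the log2 scale (adjusted p = 0.0139), 5 of 7 nicotinamide libraries lay under every young one, and the call held in all 17 fits with a library left out. Acta2, smooth muscle actin, had values of 0.630, 1.26 and 3.47 against 1.38, 4.40 and 11.6 (-1.16 ± 0.29, adjusted p = 0.0461). Myl9, the regulatory light chain of smooth muscle myosin, had 1.57, 2.12 and 6.61 against 2.24, 5.80 and 10.95 (-1.0 ± 0.24, adjusted p = 0.0361). Notch3, the receptor that maintains these cells, had 4.63, 5.61 and 9.86 against 5.87, 12.1 and 23.7 (-0.84 ± 0.19, adjusted p = 0.0301). All 3 overlapped between the groups.

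The pericyte gene Rgs5 had a median of 14.4 against 39.6 but did not pass (-1.23 ± 0.35, adjusted p = 0.0941), nor did Pdgfrb (-0.63 ± 0.25, adjusted p = 0.231). Vtn was the member above 0 (0.40 ± 0.19, adjusted p = 0.341). Most of these genes were low, and the summed marker level ran from 123 to 224 with nicotinamide and from 96.1 to 466 in the young. Young replicates 9 and 10 had the highest sums, 417 and 466. They also had the highest sums of endothelial markers, 399 and 372, and of Müller glia and astrocyte markers, 5644 and 5570. The 4 calls became 1 without any of nicotinamide replicates 1, 3, 5 and 7 or young replicates 2, 4 and 6, and 2 without nicotinamide replicates 2 and 4 or young replicates 5, 8 and 10. They became 5 without nicotinamide replicate 8 or young replicate 1, 7 with DESeq2, 1 with plain empirical Bayes and 0 when all 5 groups shared 1 spread. Endothelial markers, which line the same vessels, had a median of -0.41 with 11 of 12 tested members below 0 and 0 calls. With limma 2 were at an unadjusted p under 0.05 and the smallest adjusted p was 0.085, and edgeR and DESeq2 called 0.

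Called matrix genes were lower as well. On the list of extracellular matrix and integrins 51 of 65 genes were tested, with 2 called lower, 0 higher and a median of -0.23. Col4a2, a chain of the collagen of basement membranes, had values of 23.7, 34.7 and 43.8 against 40.6, 51.7 and 60.0 (-0.52 ± 0.11, adjusted p = 0.0238). Bgn, the proteoglycan biglycan, had 0.424, 2.59 and 4.98 against 3.29, 7.001 and 27.5 (-1.38 ± 0.34, adjusted p = 0.0498). Ecm2, a matrix protein, fell by 1.20 ± 0.25 (adjusted p = 0.0253), and Aoc3, an amine oxidase of vascular smooth muscle, by 0.84 ± 0.18 (adjusted p = 0.0238). Olfr558, an odorant receptor gene, had a median of 0.0787 against 1.66 and is so low that its change of -1.14 ± 0.19 rests on few reads. A wider list of 48 contractile and vessel wall genes, written after the values were seen, had 38 tested members, 9 called lower, 0 higher and a median of -0.52. Its count was 2 without nicotinamide replicate 3 or 5 and 5 without nicotinamide replicates 1 or 7 or young replicates 2, 4 or 6. The D2-Gpnmb+ libraries of 4 months lay below young DBA/2J in 7 of these 9 genes by their means; Myh11 averaged 5.00 there, 6.94 in young DBA/2J, 2.07 with nicotinamide, and 4.01 in the 3 water libraries of 9 months. Over all 25 water libraries of 9 months Myh11 averaged 9.16, above young, with a median of 2.27. By their means the 3 libraries lay below young in 7 of the 9 genes, and all 25 in 2. The 9 genes were chosen by their difference from these same young libraries, which tilts such counts toward the lower side. No share over all tested genes is given beside them, so the counts serve only as a description.

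**Figure D3:**
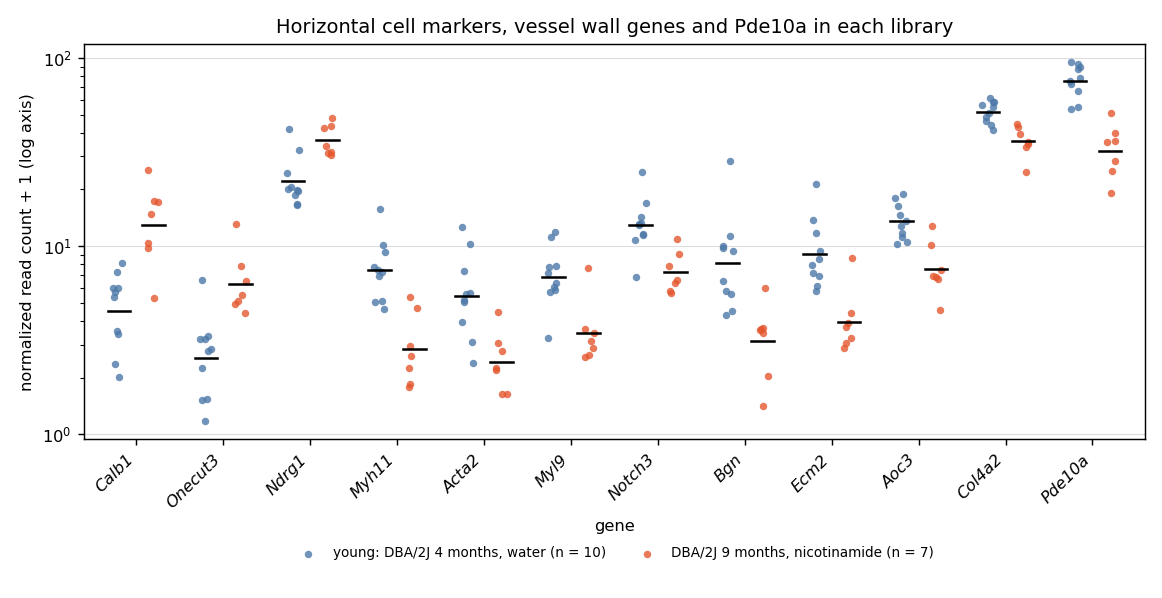
Normalized read count plus 1 (log axis) of 3 horizontal cell markers, 8 vessel wall genes and Pde10a in each library, young in blue (n = 10) and nicotinamide in red (n = 7), black bars at the mean of the log values. Calb1 is higher in red in 6 of 7 libraries, and Pde10a is the only 1 of the 12 genes whose groups do not overlap.

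A large decrease without overlap was that of Pde10a, a phosphodiesterase that breaks down cAMP and cGMP (chr17:8525372-8986648, plus strand). Its values were 18.1, 34.7 and 50.1 with nicotinamide and 52.8, 75.8 and 94.2 in the young, with no overlap, and it fell by 1.23 ± 0.17 (adjusted p = 0.00724), with a young mean 2.32-fold higher. The call held in all 17 fits with a library left out. D2-Gpnmb+ libraries at 4 months ran from 18.1 to 37.7. The 3 DBA/2J water libraries of 9 months had 32.6, 72.3 and 75.7, and all 25 ran from 5.62 to 97.3 with a median of 28.8, under the young median.

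Some called genes of signalling were on no list. Adcy1 and Rgs7 were chosen after their values were seen, and Ano3 was named by rule as 1 of the 10 largest decreases. Adcy1, a calcium-stimulated adenylyl cyclase, had values of 150, 173 and 219 against 192, 268 and 375 (-0.64 ± 0.13, adjusted p = 0.022). Rgs7, a G protein regulator in the light response of ON bipolar cells, fell by 0.62 ± 0.14 (adjusted p = 0.0338). Ano3, a membrane protein of the anoctamin family, had values of 31.6, 47.7 and 75.9 against 53.0, 96.8 and 135 (-0.94 ± 0.18, adjusted p = 0.022). Bipolar cell markers as a list had 0 calls among 24 tested, a median of -0.26 and 17 members below 0; with limma 16 were at an unadjusted p under 0.05, edgeR called 0 and DESeq2 called 9 (7 lower, 2 higher). The limma calls became 10 lower without young replicate 3, 8 lower and 2 higher without nicotinamide replicate 8, 10 lower and 2 higher with array quality weights, 1 lower without nicotinamide replicate 1 and 1 higher without young replicate 1. Isl1, a transcription factor of ON bipolar, amacrine and ganglion cells, had means of 198 and 283 (-0.53 ± 0.14, adjusted p = 0.0507). Ankk1, a kinase-like gene beside the dopamine receptor D2 gene, and Pcdha2, a clustered protocadherin, were also among the 10 largest decreases at -0.93 ± 0.21 and -0.86 ± 0.19. Clustered protocadherins share sequence, so their counts can be split between copies.

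Of trophic factors and receptors 30 of 41 were tested, 1 was called higher and 3 lower. Igf1r, the receptor of insulin-like growth factor, had values of 322, 352 and 380 against 385, 431 and 524, with no overlap (-0.29 ± 0.06, adjusted p = 0.0275). Its ligand Igf1 had 126, 190 and 243 against 184, 278 and 320 (-0.53 ± 0.12, adjusted p = 0.0328). Nrg1, a ligand of ErbB receptors, fell by 0.60 ± 0.14 (adjusted p = 0.0361), while Erbb4, one of those receptors, rose by 0.97 ± 0.23 (adjusted p = 0.0342) from a median of 3.45 to 7.54. The median of the list was -0.03.

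Chromatin genes gave 3 calls lower and 0 higher among 54 tested, with a list median of -0.04. Hdac9, a class IIa histone deacetylase, had values of 111, 138 and 183 against 164, 228 and 277 (-0.63 ± 0.10, adjusted p = 0.00724), with 5 of 7 nicotinamide libraries under every young one. Tet1, which oxidizes methylated cytosine, and Arid1b, a subunit of the BAF remodelling complex, fell by 0.29 ± 0.07 each (adjusted p = 0.0361 and 0.0462). Setd1b, a histone H3 methyltransferase subunit that is outside the list, had values of 36.8, 42.1 and 46.7 against 51.8, 56.4 and 61.1 and did not overlap (-0.40 ± 0.07, adjusted p = 0.00872). Splicing factors had 2 called higher and 1 lower of 57: Srsf5 rose by 0.51 ± 0.11 and Ddx5 by 0.30 ± 0.07, and the neuronal factor Nova2 fell by 0.26 ± 0.06 (adjusted p = 0.0248, 0.0261 and 0.0392).

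Lists of neurons and synapses gave single calls in either direction. Of 17 tested ganglion cell markers and 19 amacrine cell markers limma called 0 (3 of each at an unadjusted p under 0.05; edgeR called 0 of each, DESeq2 1 and 0), with medians of 0.19 and 0.12. Among 46 microtubule and motor genes of axonal transport Map1b, a microtubule protein, rose by 0.34 ± 0.08 and Mapt, which encodes tau, fell by 0.33 ± 0.08 (adjusted p = 0.0385 and 0.0422). Gabrd, a subunit of GABA receptors outside synapses, was the 1 call among 51 receptor genes (1.05 ± 0.22, adjusted p = 0.022), from a median of 1.15 to 3.18. Cacna2d3, an auxiliary subunit of calcium channels, was the 1 call among 49 channel genes, with values of 143, 204 and 267 against 225, 305 and 396.2 (-0.60 ± 0.15, adjusted p = 0.0462).

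Stress lists had single calls or none, where 1.54% of all tested genes were called. Counts this small do not set these lists apart from that share. Nupr1, a stress-induced chromatin protein, was the 1 call of 31 genes of the unfolded protein and integrated stress response (0.91 ± 0.21, adjusted p = 0.0342). Txnip, which binds thioredoxin and limits glucose uptake, fell by 0.77 ± 0.18 (adjusted p = 0.0342) as the 1 call of 37 antioxidant genes, from a median of 2.25 to 0.956. The iron genes Fth1, the ferritin heavy chain, and Slc40a1, the iron exporter, rose by 0.43 ± 0.10 and 0.75 ± 0.16 (adjusted p = 0.0274 and 0.0244), and the groups did not overlap for Slc40a1 (5.74 to 9.32 against 1.78 to 5.52). Limma called 0 of 41 heat shock proteins and chaperones, which had 7 at an unadjusted p under 0.05 with 0 called by edgeR and 4 by DESeq2. It called 0 of 25 mouse orthologs of human glaucoma genes, with 5 at an unadjusted p under 0.05 and 0 by edgeR or DESeq2.

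The remaining large increases were of low-level genes without a common list. Clca3, a secreted regulator of chloride channels, had values of 17.95, 19.7 and 23.2 against 5.95, 8.99 and 17.5, with no overlap (1.00 ± 0.16, adjusted p = 0.00724). Rdh9, a retinol dehydrogenase, had 2.75, 6.07 and 12.4 against 0.523, 2.57 and 3.41 (1.24 ± 0.25, adjusted p = 0.022), and its mean in the 3 water libraries of 9 months was 7.57. Dcx, a microtubule protein of young neurons, had 4.55, 7.57 and 12.7 against 0.628, 3.89 and 6.03 (1.17 ± 0.29, adjusted p = 0.0453). Mrap2, Pcsk6, Glb1l3 and Kcnj2 rose by 1.06 to 1.16, and Sox30, a transcription factor, by 0.97 ± 0.23. Of the 17 fits that left out 1 library, 6 kept the call for Dcx and 6 for Mrap2. The call was kept in 9 for Pcsk6, 15 for Glb1l3, 4 for Kcnj2 and 8 for Sox30. Sox30 was at 42.2 in nicotinamide replicate 2 and at 7.25 to 16.3 in the others. From young to the 3 water libraries of 9 months Sox30 rose by 1.59 and was called in the fit of 3 groups (limma adjusted p = 0.0398). Pcsk6, a convertase that matures secreted factors, had 1 nicotinamide library far above the others, at 17.1 against at most 6.21.

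Genes of the NAD pathway gave 1 call. Over all tested genes 1.54% were called, a share at which lists this short hold few calls or none. Of 22 genes of synthesis and salvage 14 were in the table and 10 were tested, with 0 calls and a median of 0.04. With limma 0 members were at an unadjusted p under 0.05, and edgeR and DESeq2 on the recovered reads called 0. Nampt, the rate-limiting enzyme of salvage, had values of 87.6, 90.1 and 111 with nicotinamide and 61.4, 98.5 and 117 in the young (0.05 ± 0.10, adjusted p = 0.869). Nmnat2, the enzyme that keeps NAD in axons, had 6.93, 11.7 and 18.2 against 4.50, 12.8 and 24.4 (-0.00 ± 0.29, adjusted p = 0.997). Nmrk1, Pnp, Nadk and Slc25a51, the mitochondrial NAD carrier, had changes between -0.13 and 0.09 with adjusted p values of 0.463 or more. Of 24 NAD-consuming enzymes 22 were tested and 1 was called, Sarm1. Its values were 71.9, 91.3 and 116 against 92.6, 123 and 154 (-0.45 ± 0.11, adjusted p = 0.0408), and the call held in 4 of the 17 fits that left out a library. The groups overlapped.

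Energy and protein synthesis lists had 0 calls. These were the 13 tested mitochondrially encoded subunits (median -0.06), 36 nuclear genes of complex I (0.07), 25 of complexes II to IV (0.05), 17 of ATP synthase (0.07), 24 of the citric acid cycle (0.03), 78 cytosolic ribosomal proteins (0.11) and 76 mitochondrial ones (0.03). Over these 7 lists, limma put 25 of 269 genes at an unadjusted p under 0.05, edgeR called 0 and DESeq2 called 1. Of the 78 cytosolic ribosomal protein genes 67 were above 0, within -0.22 to 0.31. Glycolysis had a median of 0.22 with 19 of 22 genes above 0 and 0 calls by limma, though 11 were at an unadjusted p under 0.05, edgeR called 1 and DESeq2 called 6. Its closest members were Hk2, a hexokinase with means of 114 and 73.8 (0.63 ± 0.17, adjusted p = 0.0622), and Ldha, lactate dehydrogenase, with 356 and 288 (0.30 ± 0.08, adjusted p = 0.0642).

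A list of 30 genes reported with age in DBA/2J, drawn from earlier accounts that partly rest on these samples and so not independent evidence, had 26 tested members and 0 calls in the comparison of nicotinamide with young. The median was 0.29 with 21 above 0, and 5 were at an unadjusted p under 0.05. The edgeR test on recovered reads called 2 of them, A2m and C4b, and DESeq2 called 3. In the 3 water libraries of 9 months the same list had a median of 0.65 above the same young libraries. The list pools genes above young in those 3 libraries, such as Stat3, with genes below, such as Gad1. Gad1 was at 14.8, 15.5 and 38.2 in them, against a young median of 51.9. The medians and the count above 0 therefore do not measure a shift along the change with age. C3, Lcn2, Dlx3 and Edn2 did not pass the filter on low values and were not tested; their young medians were 0.5261, 0.129, 0.358 and 0.114 and their nicotinamide medians 0.953, 1.03, 0.866 and 1.42.

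One nicotinamide library stood apart in this list. Nicotinamide replicate 2 held the highest value of all 17 libraries for 16 of the 30 genes. A2m, alpha-2-macroglobulin, an inhibitor of proteases made in response to Stat3, was at 243 in that library, between 8.92 and 14.7 in the other 6, and between 1.64 and 8.54 in the young. Serpina3n, an acute phase protease inhibitor, was at 121 there, 1.21 to 4.02 in the other 6 and 0.881 to 4.603 in the young. Stat3, the transcription factor of this response, was at 207, against 40.2 to 62.8 and 36.9 to 45.4.

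The same library was high in Slit3, an axon guidance ligand, at 81.7 against at most 8.12 in the other 6, and in Dlx3, a homeobox gene, at 61.2 against at most 1.12. Atf3, a transcription factor induced by axon injury, was at 15.6 against at most 2.28, and Edn2, endothelin 2, at 10.9 against at most 2.80. Osmr, the oncostatin M receptor, was at 55.3 against at most 15.1, and Serping1, the inhibitor of complement C1, at 35.2 against at most 7.48. Gfap, the glial filament gene, which is not in the list, was at 42.7 against at most 3.36, while Egr1, an immediate early gene, was at 21.1, the lowest of the 7.

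The 3 DBA/2J water libraries of 9 months also spread widely. A2m was at 30.8, 76.9 and 330 in them, Stat3 at 89.1, 163 and 223, and Dlx3 at 5.49, 17.01 and 102. For A2m and Stat3 the 6 other nicotinamide libraries lay under all 3 of these, and replicate 2 lay within their range. Over all 25 water libraries of 9 months A2m ran from 1.89 to 330 with a median of 8.24, below the median of 11.2 in those 6, and Stat3 from 29.1 to 223 with a median of 71.6. The difference between nicotinamide and water did not pass for A2m (-2.32, adjusted p = 0.186), Stat3 (-1.24, adjusted p = 0.111) or Slit3 (-2.19, adjusted p = 0.173).

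With nicotinamide replicate 2 in the fit, A2m changed from young by 1.74 ± 0.53 (adjusted p = 0.114) although its groups did not overlap. Without that library the change was smaller, 1.13, and passed (adjusted p = 0.0135). Serpina3n went from 0.89 to 0.17 and Stat3 from 0.62 to 0.34 without it, and neither passed (adjusted p = 0.833 and 0.065). The list's median was then 0.20. C4b, complement component 4, had values of 2.44, 4.93 and 11.9 with nicotinamide and 1.04, 2.03 and 4.25 in the young, and a change of 0.89 ± 0.24 that just missed the threshold (adjusted p = 0.06). It was 0.70 without replicate 2 (adjusted p = 0.131).

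Gpnmb had values of 7.46, 11.7 and 16.3 against 3.69, 9.00 and 14.5 (0.37 ± 0.21, adjusted p = 0.441), far under the 34.7 to 130 of D2-Gpnmb+ mice at 4 months. It was at 18.6, 26.5 and 31.8 in the 3 water libraries of 9 months. The amacrine genes on the age list varied within the groups more than between them: Gad2, which makes GABA, ran from 50.7 to 403 and from 15.99 to 288 (1.01 ± 0.56, adjusted p = 0.436), and Tfap2b from 53.8 to 306.2 and from 40.0 to 403 (0.05 ± 0.49, adjusted p = 0.978).

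Among immune genes outside the age list, H2-D1, a class I antigen-presenting molecule, rose by 0.65 ± 0.14 (adjusted p = 0.0261). Its values were 13.1, 18.6 and 24.7 against 8.59, 10.3 and 15.8, and the 3 water libraries of 9 months were at 21.5, 23.7 and 62.4. It was the only call among 32 tested MHC class I and interferon genes, whose median was 0.21. Il1r1, the interleukin 1 receptor, was the only call among 21 tested cytokine and acute phase genes (0.86 ± 0.18, adjusted p = 0.022). Complement had 0 limma calls of 12 (2 at an unadjusted p under 0.05; edgeR and DESeq2 called 1) and a median of 0.17. Immediate early genes had 0 of 30 (3 at an unadjusted p under 0.05; edgeR called 0 and DESeq2 2) and a median of 0.04. Of 55 lists with a tested member 34 had no limma call, while edgeR or DESeq2 called members of some of these, such as 9 bipolar cell and 6 glycolysis genes with DESeq2.

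**Figure D4:**
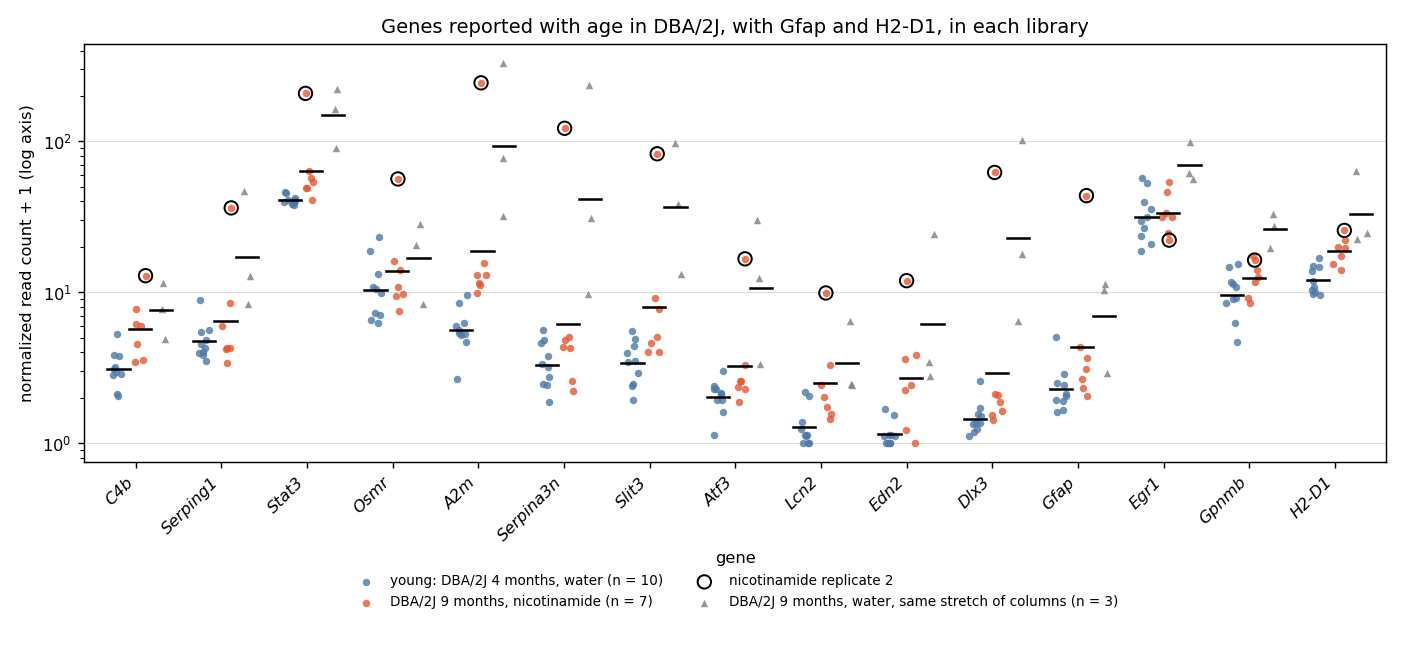
Normalized read count plus 1 (log axis) of 13 genes reported with age in DBA/2J, with Gfap and H2-D1, in each young library (blue, n = 10), nicotinamide library (red, n = 7) and DBA/2J water library of 9 months in the same stretch of columns (grey triangles, n = 3), black bars at the mean of the log values. The circled library is nicotinamide replicate 2, which stands at 243 for A2m and 121 for Serpina3n, above the other red and all blue points, but not for Egr1.

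The change of 200 genes between nicotinamide and young was set against other changes with age. From young to the 3 water libraries of 9 months, 69 genes passed (0.495% of 13928), 29 higher and 40 lower; edgeR called 56, with 44 higher and 12 lower. That count was 0 without water replicate 26, 362 without water replicate 27 and 13 without water replicate 28. The difference between the change in nicotinamide-treated DBA/2J and the change with age in D2-Gpnmb+ on water was tested gene by gene in the 33 libraries of the stretch, and 0 of 14313 genes passed with limma. There were 1156 at an unadjusted p under 0.05, and edgeR on the recovered reads also called 0. This contrast had only 3 D2-Gpnmb+ libraries of 9 months. With the spread of the 5 groups shared in this way, nicotinamide against young gave 44 calls, not 200. The 0 calls therefore do not show that the 2 changes were alike.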

How the data were processed

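RNA of sorted Thy1.2-positive retinal cells was sequenced. The tools named per the submitters' processing notes are Bowtie2 2.0.6, TopHat2 2.0.7 and HTSeq, with mm10 as genome build. Each deposited value is a scaled signal per gene; how the authors set the scale of a library is not given in the sources used here. In every library 100% of values were whole multiples of 1 step (tolerance 0.05), so reads could be recovered. Of 15171 genes, 22 with date-like names were left out.

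Groups came from the column names. Values were tested as log2(value + 1) with limma 3.58.1 (R 4.3.3, trended and robust empirical Bayes) on genes that reached 1 in no fewer than 7 of the 17 libraries, with Benjamini-Hochberg adjustment over all tested genes and a threshold of 0.05. Such fold changes understate the change of low genes. The other contrasts came from fits of 3 and 5 groups in the stretch of columns that begins with the nicotinamide ones and runs to the end. The edgeR 4.0.16 quasi-likelihood test and DESeq2 1.42.0 on the recovered reads were alternatives, beside other pseudocounts, filters, scalings, weights and each library left out. Counts of calls per list with a library left out were added after seeing the data. On simulated counts for the main comparison limma recovered 96% of changes of 1 and 21% of changes of 0.5 on the log2 scale, with 2 false calls of 118 (13137 genes). The simulation gave every gene the same spread beyond counting noise, drew genes independently and held no shifts of whole libraries. It therefore checks the procedure and does not measure how many changes were missed in the real libraries. The lowest chi-squared per gene between 2 of the 17 libraries was 6.54, so none was a copy.

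The comparison, its members and the gene lists were chosen with earlier results of these data known. Genes were named by rule: the 10 called genes with the largest rise and the 10 with the largest fall whose higher group averaged 5 or more, without unnamed gene models; the 10 smallest adjusted p; up to 3 called genes of each list with 2 or more calls; every gene reported with age in DBA/2J; NAD synthesis genes that were called or averaged 5 or more; Gpnmb; and up to 5 calls in each direction of the difference from D2-Gpnmb+, of which there were 0. All other named genes were chosen after their values were seen. Gene positions are from the GENCODE annotation of GRCm38, the assembly that mm10 names, and promoters from RefSeq on GRCm38.p6.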

Additional observations from a re-analysis of the deposited data

Results flagged for a closer look

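In nicotinamide replicate 2 the value lay far from the other 6 nicotinamide libraries in 13 named genes. It was high for 12: A2m at 243, Dlx3 at 61.2, Gfap at 42.7, Lcn2, lipocalin 2, at 8.88, Serpina3n at 121, Slit3 at 81.7, Stat3 at 207, Atf3 at 15.6, Osmr at 55.3, Serping1 at 35.2, Fosb at 3.61 and Pcsk6 at 17.1. The ranges of the other 6 were 8.92 to 14.7 for A2m, 1.21 to 4.02 for Serpina3n, 0.424 to 1.12 for Dlx3, 1.06 to 3.36 for Gfap, 0.448 to 2.28 for Lcn2, 40.2 to 62.8 for Stat3, and 3.36 to 6.21 for Pcsk6. It was low for Glul, the glutamine synthetase of Müller glia, at 181 (others 541 to 955). Nicotinamide replicate 8 was the high one for the vessel wall genes Myl9 at 6.61 (others 1.57 to 2.63) and Ecm2 at 7.69 (others 1.87 to 3.39), and nicotinamide replicate 7 for Arap2 at 16.7 (others 11.7 to 12.6). Among the young libraries, replicate 10 was high for Bgn at 27.5 (others 3.29 to 10.3) and replicate 9 for Serping1 at 7.82 (others 2.47 to 4.64). Low-level genes were also high in young replicate 3 for Dlx3 at 1.58 (others up to 0.703) and in young replicate 10 for Gfap at 4.03 (others up to 1.88). Young replicate 8 was low for Maml3 at 20.1 (others 28.7 to 38.1) and young replicate 7 for Slc40a1 at 1.78 (others 3.35 to 5.52). In all, 22 of 264 checks of a gene in a group found such a library. Chance gives about 1 in 20 for independent checks. These checks were not independent: 13 of the 22 were of nicotinamide replicate 2, and some genes were chosen after their values were seen. The 2 rates can therefore not be compared.

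In 7 named genes the change from young differed between nicotinamide and the 3 water libraries of 9 months in the fit of 3 groups. Nicotinamide minus water was 2.15 for Calb1, 1.76 for Pcsk6, 1.89 for Adra2a, a receptor for noradrenaline, 1.44 for Amer3 and 1.27 for Arap2. It was -0.85 for Maml3, a coactivator of Notch signalling, and -1.27 for Lrrc55, a subunit of potassium channels. The adjusted p was 0.00194 for Arap2, 0.0471 for Pcsk6 and 0.0429 for the other 5. In each of these genes the mean change from young had opposite signs in the 2 groups: 1.51 with nicotinamide and -0.64 on water for Calb1, 0.58 and -0.69 for Arap2, and -0.84 and 0.43 for Lrrc55. The change on water did not pass for Calb1 or Pcsk6 (limma adjusted p = 0.529 and 0.483). These genes were named with their change from young in the same nicotinamide libraries known, which tilts such differences. Over all genes 21 of 13928 were called (0.151%), 0 without water replicate 26 and 4 with edgeR. The opposite signs serve only as a description.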

How the results depend on the processing

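The 200 genes between nicotinamide and young were 499 with DESeq2 (all 200 among them), 598 with array quality weights, 88 with plain empirical Bayes and 44 when all 5 groups shared 1 spread. Leaving out each of the 17 libraries gave 16 to 415. The 69 genes for age on water were 42 with a pseudocount of 2, and 0 to 362 without 1 of the 3 water libraries. The 21 genes for nicotinamide against water were 4 with edgeR, and 0 to 282 without 1 of those libraries. The difference from the change with age in D2-Gpnmb+ had 0 calls, 1 with no filter and 0 to 0 without 1 D2-Gpnmb+ library of 9 months. The cause of these shifts was not tested. For the 84 called genes named here, 781 of the estimates under 11 other settings kept direction and call and 128 kept direction only, and none changed direction; 5 of 43 uncalled genes changed sign without a call. Rescaling to column sums moved the median of all genes to 0.036 and the calls to 81 higher and 62 lower. Depth limits genes at a few reads. No paired analysis was possible because the groups share no replicate numbers in the labels.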
